A study of Mus musculus with 9 samples.

Results

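The 7 mature miRNAs described here, which are used as markers of smooth muscle and connective tissue, were followed in the washed fat layer of mouse milk. They are mmu-miR-143-3p, mmu-miR-143-5p, mmu-miR-145a-5p, mmu-miR-145a-3p, mmu-miR-199a-3p, mmu-miR-199a-5p and mmu-miR-214-3p. They were chosen by name and make up 7 of the 1915 mature names in the count table, of which 828 had at least 1 count. All 7 members were detected in at least 1 library, and 5 of the 7 passed the filter on low counts that 312 names passed. Names are written below without the species prefix. A level is given in CPM, counts of a name per 1000000 counts of the library.

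Milk was taken on lactation day 10 from 9 primiparous dams of the outbred ICR (CD1) stock, and each library holds the small RNA of a different dam. From 4 weeks of age, 5 control dams ate a diet with 10% of its energy as fat (3.85 kcal per g) and 4 high-fat dams a diet with 60% (5.24 kcal per g). Both diets held 7% of their energy as sucrose, began 4 weeks before mating and continued through pregnancy and lactation. The labels name no transgene and no agent other than diet. Before mating, pairs of dams on the same diet shared a cage, and the cage of each dam is not recorded in the labels. Library totals ran from 837817 counts in control dam 5 to 3897109 in high-fat dam 2. The luminal epithelial list, 10 names that include miR-200c-3p, miR-141-3p and miR-148a-3p and that mark the milk-secreting cell, held 28.6% to 34.0% of the counts in every library, and all 10 names were detected. Among the members, high-fat dam 4 stood apart for miR-143-3p and high-fat dam 3 for miR-199a-3p. Among the marker lists, control dam 5, the shallowest library, stood apart for a basal epithelial list of 3 names. Of these, only miR-203-3p was high there, while miR-205-5p was at its lowest of the 9 libraries and miR-205-3p had 0 counts. High-fat dam 3 stood apart for a red cell list and a striated muscle list. High-fat dam 1 had the highest share of a leukocyte list of 7 names.

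miR-143 and miR-145a are made from neighbouring hairpins and are best known from smooth muscle, where they hold the contractile state under serum response factor and myocardin. miR-199a and miR-214 are made together from the long antisense RNA Dnm3os in mesenchymal cells and fibroblasts. In the mammary gland such cells surround the ducts and alveoli, while the fat globule carries cytoplasm of the luminal cell that secretes it. The question here was whether miR-143-3p went up and down from dam to dam with its own other arm, with its cluster mate miR-145a, and with miR-199a and miR-214.

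The sequences of the miR-199 and miR-214 products are shown first because they decide which names the counts can tell apart. RefSeq sequences (GRCm38.p6) were found for 3 of the 7 members, and in the lines below the seed, bases 2 to 8 from the 5′ end, is in capitals.
miR-199a-3p: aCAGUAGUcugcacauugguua
miR-199b-3p: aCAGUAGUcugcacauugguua
miR-199a-5p: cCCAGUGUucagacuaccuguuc
miR-214-3p: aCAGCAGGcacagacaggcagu
The 3p arms of miR-199a and miR-199b are the same 22 bases, and the table gave both names the same count in all 9 libraries. Reads named miR-199a-3p therefore cannot be assigned to a gene of origin. Among the names shown, the seed CAGUAGU was shared by these 3p arms, while miR-199a-5p (CCAGUGU) and miR-214-3p (CAGCAGG) each had a seed of their own.

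The hairpins from which these arms are cut show where the copies can be separated. In the next lines the mature arms listed by RefSeq are in capitals.
Mir199a-1: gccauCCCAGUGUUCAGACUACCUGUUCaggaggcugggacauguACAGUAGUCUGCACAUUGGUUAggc
Mir199a-2: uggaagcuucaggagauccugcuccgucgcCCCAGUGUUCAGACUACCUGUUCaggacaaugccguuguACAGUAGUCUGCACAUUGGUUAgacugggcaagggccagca
Mir199b: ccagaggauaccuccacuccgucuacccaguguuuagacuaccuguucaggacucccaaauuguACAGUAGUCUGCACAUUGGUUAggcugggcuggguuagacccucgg
Mir214: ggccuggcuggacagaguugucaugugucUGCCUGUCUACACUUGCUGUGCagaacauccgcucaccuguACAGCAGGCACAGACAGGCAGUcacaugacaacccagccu
The stretch of the Mir199b hairpin that is most like miR-199a-5p, bases 26 to 48 of the hairpin, differs from it at a single base, C10U, where positions are counted from 1 at the 5′ end of miR-199a-5p and its base is written before that of Mir199b. Mir199a-1 lies at chr9:21496495-21496564 on the minus strand, in an intron of Dnm2 and opposite to it. Mir199a-2 at chr1:162217814-162217923 and Mir214 at chr1:162223368-162223477 both lie on the plus strand, 5444 bases apart, in an intron of Dnm3 on the opposite strand and over an exon of Dnm3os on the same strand. Mir199b lies at chr2:32318460-32318569 on the plus strand, in an intron of Dnm1 and opposite to it (all GRCm38, with GENCODE M21 genes). Mir143 and Mir145a lie on the same strand as each other with 1301 bases between them.

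miR-143-3p, the major arm of its hairpin, was by far the most abundant member and held 94.8% to 97.4% of the members' summed counts in every library. In control dams 1 to 5 it measured 18579, 18316, 10876, 15118 and 9913 CPM. In high-fat dams 1 to 4 it measured 12039, 11360, 11982 and 25225 CPM. High-fat dam 4 was the highest of all 9, the other 3 high-fat dams lay close together near the lower control dams, and the diets overlapped. As a share of all counts its mean was 1.46% ± 0.405 for the 5 control dams (SD) and 1.52% ± 0.672 for the 4 high-fat dams (SD), and among mature names its rank by count ran from 25 in control dam 5 to 9 in high-fat dam 4. Without high-fat dam 4 the high-fat level was 11794 CPM ± 376 (SD, n = 3). With 8305 counts or more in each library, counting error would give a coefficient of variation of 0.641%, and the 9 libraries varied by 33.9%.

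miR-143-5p, the arm of the same hairpin that is mostly degraded, was present at 6 to 28 counts per library. The control dams had 13.7, 8.84, 6.54, 17.5 and 13.1 CPM. The high-fat dams had 8.99, 6.67, 2.97 and 12.6 CPM. The lowest value was that of high-fat dam 3 and the highest that of control dam 4, and the diets overlapped. Its coefficient of variation of 44.4% stood beside 25.3% from counting alone, so much of its spread could not be resolved at this depth.

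miR-145a-5p, the major arm of the neighbouring hairpin, measured 543, 480, 343, 361 and 434 CPM in control dams 1 to 5. In high-fat dams 1 to 4 it measured 414, 288, 273 and 486 CPM. High-fat dams 2 and 3 were lowest, control dam 1 was highest, high-fat dam 4 was the second highest, and the diets overlapped. The coefficient of variation over the 9 libraries was 23.0%, against 3.92% from counting.

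miR-145a-3p, the minor arm, measured 172, 143.01, 86.9, 119 and 88.3 CPM in the control dams. The high-fat dams had 122, 80.8, 76.1 and 135 CPM. As for the 5p arm, control dam 1 was highest and high-fat dam 3 lowest, and the diets overlapped. Its coefficient of variation was 29.0%, against 7.36% from counting.

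miR-199a-3p, a fibroblast miRNA whose count also holds miR-199b-3p, was a low-level name in 8 of the 9 libraries. The control dams had 29.1, 24.9, 29.8, 15.6 and 10.7 CPM. The high-fat dams had 17.1, 10.0, 284 and 27.8 CPM. High-fat dam 3, with 575 counts, was 9.54-fold above the next highest library, and the other 3 high-fat dams lay within or just below the control range. The mean was 22.0 CPM ± 8.47 for the control dams (SD, n = 5) and 84.8 CPM ± 133 for the high-fat dams (SD, n = 4), or 18.3 CPM ± 8.96 without high-fat dam 3 (SD, n = 3).

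miR-199a-5p, which unlike the 3p arm differs from its counterpart in Mir199b, was close to the limit of detection. The counts were 9, 2, 9, 1 and 0 in control dams 1 to 5 and 6, 6, 20 and 2 in high-fat dams 1 to 4. High-fat dam 3 had the most here too, at 9.89 CPM, against 5.34 CPM in control dam 1, the next highest. The count of 0 in control dam 5 allows up to 3 counts, or 3.58 CPM, which covers the level of 6 of the other 8 libraries.

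miR-214-3p, the partner of miR-199a-2 on Dnm3os, was barely present. Its counts were 1, 0, 1, 0 and 0 in the control dams and 1, 0, 2 and 3 in the high-fat dams, 8 in all. At this depth no difference between libraries could be seen, since 3 counts are worth 0.770 CPM in the deepest library and 3.58 CPM in the shallowest. High-fat dam 3, with its high miR-199a-3p, had 2 counts of miR-214-3p and 1 of miR-214-5p.

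**Figure D1:**
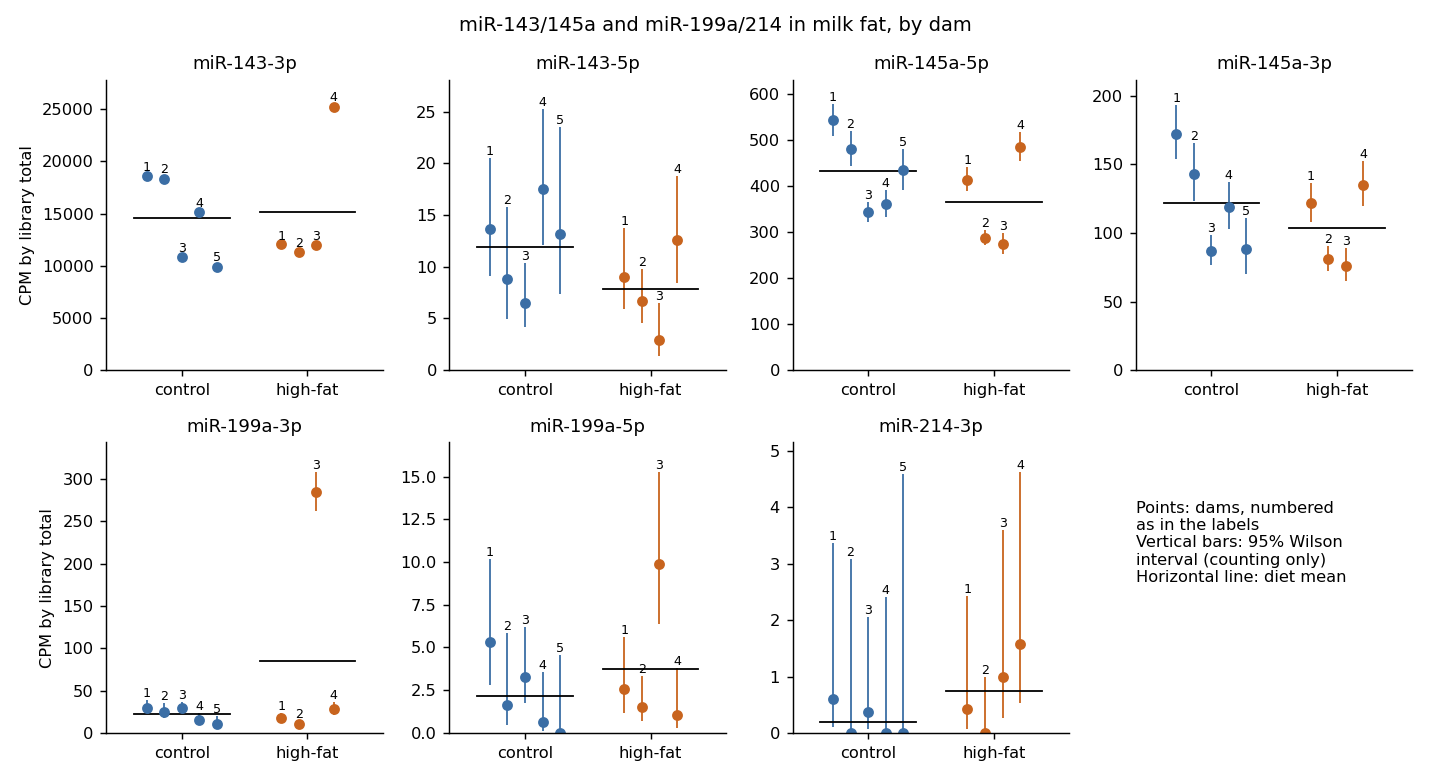
Level of each of the 7 members in CPM by library total (y axis, a separate scale for each miRNA) in 5 control and 4 high-fat dams (x axis); points are dams with their label numbers, vertical bars are 95% Wilson intervals for counting error, and horizontal lines are diet means. miR-143-3p stands at 25225 CPM in high-fat dam 4 and miR-199a-3p at 284 CPM in high-fat dam 3, while the diets overlap for every member.

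The order of the levels was the same in 8 libraries for the 4 most abundant members: miR-143-3p, then miR-145a-5p, then miR-145a-3p, then miR-199a-3p. In high-fat dam 3 miR-199a-3p (284 CPM) stood beside miR-145a-5p (273 CPM) and above miR-145a-3p (76.1 CPM), and the Wilson intervals of the first of these overlapped (262 to 308 and 252 to 297 CPM). miR-199a-3p and miR-143-5p were neighbours whose ranges overlapped over the libraries, and so were miR-199a-5p and miR-214-3p. Mature miRNAs are of nearly equal length, so their counts were set side by side without a length term. Whether the library kit captures each sequence equally well was not tested.

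The diet comparison asked whether any member differed between high-fat and control milk. limma-voom fitted all 312 names. Each log2 fold change is positive where high-fat milk was higher, and ± gives its standard error. No member was called. miR-143-3p had a log2 fold change of 0.00 ± 0.29 (adjusted p = 0.993), and without high-fat dam 4 the value was -0.31 ± 0.23 (adjusted p = 0.661). miR-145a-5p had -0.26 ± 0.21 (adjusted p = 0.649), which became -0.47 without high-fat dam 4 and -0.15 without high-fat dam 3. miR-145a-3p had -0.25 ± 0.26 (adjusted p = 0.720), which became -0.43 without high-fat dam 4 and -0.12 without control dam 1. miR-143-5p had -0.61 ± 0.46 (adjusted p = 0.649), which became -0.92 without control dam 3 and -0.32 without high-fat dam 3. The adjusted p of these 3 names was at least 0.506 with any 1 library left out. miR-199a-3p had 0.40 ± 0.91 (adjusted p = 0.873), and without high-fat dam 3 the sign turned, to -0.51 ± 0.42 (adjusted p = 0.668).

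Of the 5 tested members, 2 had a higher and 3 a lower fitted level in high-fat milk, with a median log2 fold change of -0.25. Over all 312 names the median was 0.00, and 158 were higher. The count of members called at an adjusted p of 0.05 was 0, as for all names tested (0%). At an unadjusted p of 0.05 it was 0 of 5 members beside 32 of 312 names (10.3%), and the diets did not overlap for 0 of 7 members beside 13 of 312 names (4.17%). miR-199a-5p and miR-214-3p were too low to test.

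Marker names of related cells gave the following picture by the same fit. Of 19 other stromal names, 18 were detected and 9 tested, 6 with a higher and 3 with a lower fitted level in high-fat milk, none called, and the median log2 fold change was 0.27. The smallest p among them was that of miR-140-5p, a cartilage and mesenchyme miRNA, at 0.86 ± 0.36 (adjusted p = 0.436). The more abundant other arm, miR-140-3p, had -0.07 ± 0.22 (adjusted p = 0.892). miR-490-3p, a smooth muscle name on that list, was at 0 in all libraries. miR-140-3p and miR-99a-5p make up 74.8% to 90.0% of the counts of all 19 names. These names include miR-199b-3p, whose reads are those of miR-199a-3p and which the summed shares given below leave out. Other lists, all with 0 called names, were the luminal epithelial (10 tested, median 0.02), basal (2 tested, median 0.03), leukocyte (6 tested, median 0.84), endothelial (2 tested, median 0.95) and red cell lists (3 tested, median 0.29). The leukocyte list held 1.23% and 0.353% of the counts in high-fat dams 1 and 3. In high-fat dams 2 and 4 it held 0.0284% and 0.0568%, below the control range of 0.0622% to 0.104%. The endothelial names had at most 46 (miR-126a-3p) and 25 (miR-126a-5p) counts in any library.

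The ratio of miR-143-3p to miR-145a-5p within a library does not depend on how libraries are scaled. It was 34.2, 38.1, 31.7, 41.9 and 22.8 in control dams 1 to 5. It was 29.1, 39.4, 43.8 and 51.9 in high-fat dams 1 to 4. High-fat dam 4 had the highest ratio (exact 95% interval 48.6 to 55.5) and control dam 5 the lowest (20.5 to 25.4), so these cluster mates did not keep a fixed proportion from dam to dam within counting error. The mean log2 ratio was 5.05 ± 0.34 for the control dams (SD, n = 5) and 5.33 ± 0.35 for the high-fat dams (SD, n = 4). The difference was 0.28 (two-sided exact permutation p = 0.286, adjusted p = 0.714 over 5 ratios). With groups of 5 and 4, the smallest p this test can give is 0.0159.

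The arms of miR-145a had a proportion with little spread among the high-fat dams. miR-145a-5p per miR-145a-3p was 3.15, 3.36, 3.95, 3.04 and 4.92 in the control dams and 3.40, 3.57, 3.59 and 3.603 in the high-fat dams. Control dam 5 was highest, and the 4 high-fat dams lay close together inside the control range. The SD of the log2 ratio was 0.28 for the control and 0.04 for the high-fat dams, beside 0.34 and 0.35 for the ratio of miR-143-3p to miR-145a-5p, and whether these spreads differ was not tested. The log2 difference between diets was -0.03 (exact permutation p = 0.865, adjusted p = 0.865).

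miR-143-3p per miR-143-5p was 1361, 2073, 1662, 864 and 755 in the control dams and 1339, 1703, 4039 and 2003 in the high-fat dams. The value of high-fat dam 3 rests on 6 counts of miR-143-5p (exact 95% interval 1855 to 11007). The log2 difference was 0.72 (exact permutation p = 0.159, adjusted p = 0.714), and 0.42 without high-fat dam 3.

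miR-199a-3p per miR-145a-5p, a ratio of the fibroblast name to the smooth muscle name, was 0.0536, 0.0518, 0.0869, 0.0433 and 0.0247 in the control dams and 0.0414, 0.0347, 1.04 and 0.0572 in the high-fat dams. Only high-fat dam 3 was near parity. The log2 difference was 0.98 (exact permutation p = 0.5, adjusted p = 0.833), and -0.16 without high-fat dam 3. miR-199a-3p per miR-199a-5p, which rests on 0 to 20 counts of the 5p arm, differed by 0.12 on the log2 scale (exact permutation p = 0.849, adjusted p = 0.865), or by 0.75 with 5 counts added to each name in place of 0.5.

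**Figure D2:**
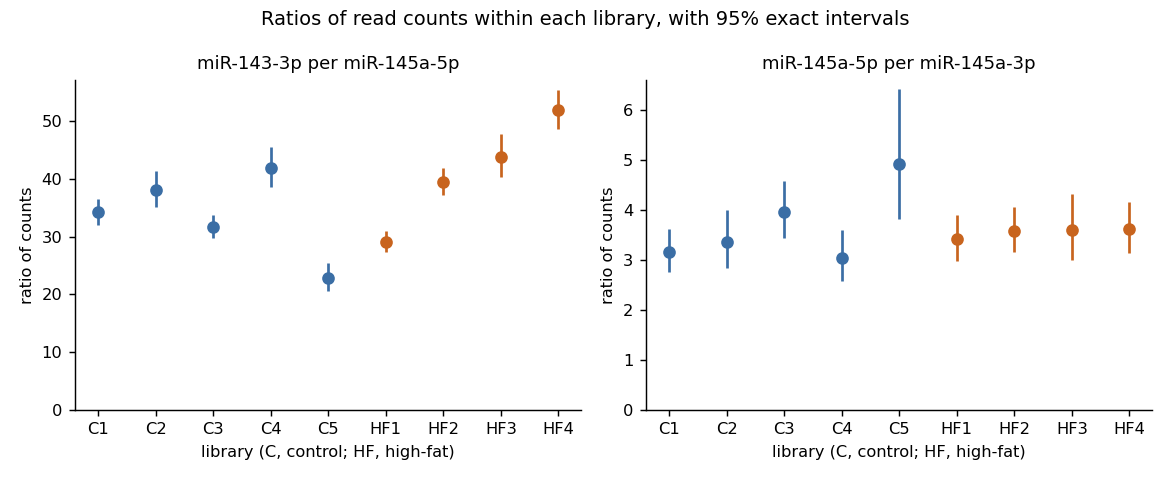
Ratio of counts within each library (y axis) for miR-143-3p per miR-145a-5p and for miR-145a-5p per miR-145a-3p in 5 control and 4 high-fat libraries (x axis); bars are exact 95% intervals for counting error. The cluster ratio runs from 22.8 to 51.9, while the arm ratio of miR-145a lies between 3.04 and 4.92.

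With all 9 dams included, the coefficients of miR-143-3p were higher with the arms of miR-145a than with miR-199a-3p. Over the 9 dams the correlation of log2(CPM + 1) with miR-145a-3p was r = 0.79 (exact permutation p = 0.0141, adjusted p = 0.114 over 13 relations) and rho = 0.77 (exact permutation p = 0.0214, adjusted p = 0.202). With miR-145a-5p it was r = 0.63 (exact permutation p = 0.0697, adjusted p = 0.227) and rho = 0.65 (exact permutation p = 0.0666, adjusted p = 0.247). With miR-143-5p it was r = 0.41 (exact permutation p = 0.273, adjusted p = 0.591) and rho = 0.40 (exact permutation p = 0.291, adjusted p = 0.631). None of these passed an adjusted p of 0.05, and whether the coefficients differ from each other was not tested.

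High-fat dam 4 and control dam 1 were farthest from the median of miR-143-3p. Without both, r was 0.79 with miR-145a-3p, 0.38 with miR-145a-5p and 0.22 with miR-143-5p, so that with miR-145a-5p and with miR-143-5p much of the relation rests on these dams. Without control dam 5, r with miR-145a-5p was 0.79. The diets hold 5 and 4 dams, too few for a coefficient within each. With each diet's mean removed, r was 0.83 with miR-145a-3p (exact permutation p = 0.00864, adjusted p = 0.0562), 0.70 with miR-145a-5p (exact permutation p = 0.0373, adjusted p = 0.121) and 0.48 with miR-143-5p (exact permutation p = 0.185, adjusted p = 0.400).

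With miR-199a-3p, r was 0.06 (exact permutation p = 0.891, adjusted p = 0.999) and rho was 0.25 (exact permutation p = 0.521, adjusted p = 0.677). Without the 2 dams farthest from the median of miR-143-3p, r was 0.05. High-fat dam 3 decides this value: without it r was 0.62 (exact permutation p = 0.102, adjusted p = 0.220) and rho 0.40 (exact permutation p = 0.327, adjusted p = 0.531). Without high-fat dam 3, miR-145a-5p had a similar r of 0.64 (rho 0.69), and miR-145a-3p had r = 0.80. That dam had the highest miR-199a-3p and a miR-143-3p just below the median of the 9. For the members too low to test, r was -0.00 with miR-199a-5p and 0.48 with miR-214-3p, given as descriptions of 55 and 8 counts in all.

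**Figure D3:**
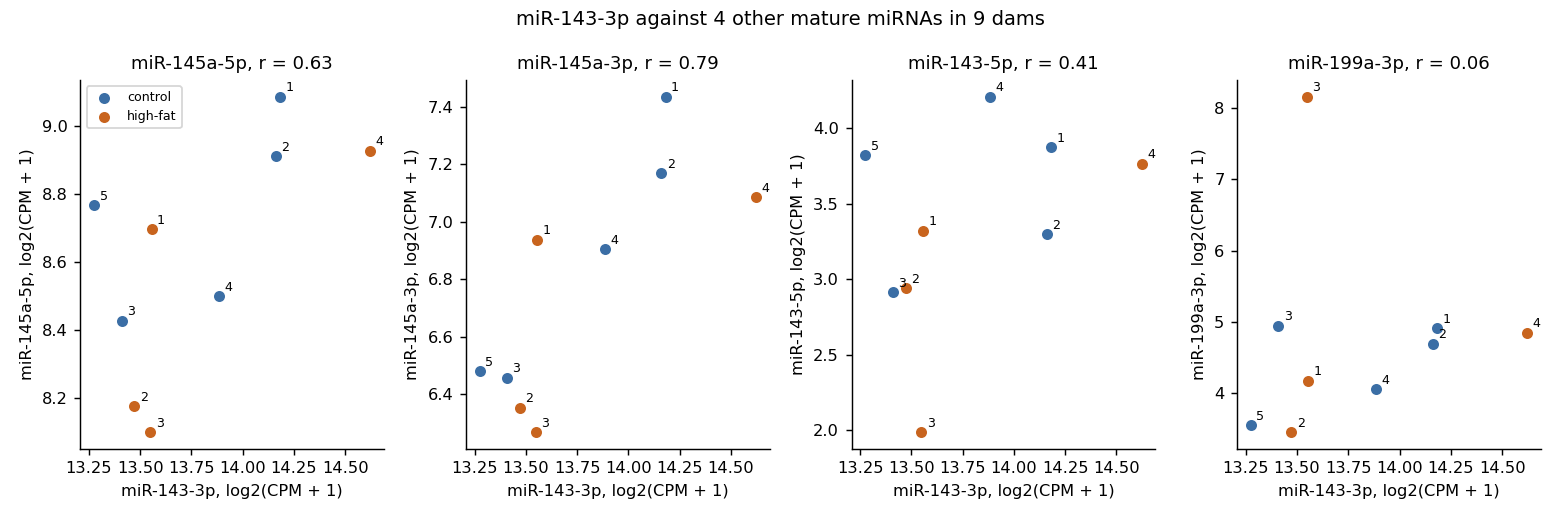
miR-143-3p (x axis) against miR-145a-5p, miR-145a-3p, miR-143-5p and miR-199a-3p (y axes), all as log2(CPM + 1), in 9 dams; points are dams with their label numbers, blue for control and orange for high-fat. The points rise from left to right for both arms of miR-145a (r = 0.63 and 0.79), and high-fat dam 3 stands apart for miR-199a-3p (r = 0.06).

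The arms of miR-145a followed each other most closely of the tested members. Among the 6 other pairs of tested members, miR-145a-5p with miR-145a-3p had r = 0.87 (exact permutation p = 0.00359, adjusted p = 0.0216 over 6 pairs) and rho = 0.93 (exact permutation p = 0.000750). Without high-fat dams 3 and 2, the farthest from the median of miR-145a-5p, r was 0.76. These pairs were added after the counts were seen. miR-145a-5p with miR-143-5p had r = 0.70 (exact permutation p = 0.0328, adjusted p = 0.0872), and 0.25 without those dams. With miR-199a-3p, r was -0.33 for miR-145a-5p and -0.21 for miR-145a-3p over all dams, and 0.56 and 0.63 without high-fat dam 3.

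The likeness of every other tested name to miR-143-3p was ranked by the same r over the 9 dams, as a description, since all names share the libraries and their totals. The median r of 311 names was -0.03, and 149 were above 0. miR-7a-5p ranked 1 (r = 0.87), miR-145a-3p ranked 2 (0.79), and miR-101b-3p (0.79), miR-101a-3p (0.76), miR-22-3p (0.75) and miR-30e-5p (0.69) followed. None of the 5 names other than miR-145a-3p is on the stromal list. miR-145a-5p ranked 13 (0.63), miR-143-5p 57 (0.41) and miR-199a-3p 138 (0.06). Without high-fat dam 4, miR-145a-3p ranked 1 (0.87) and miR-7a-5p 2 (0.73). Without high-fat dam 3, miR-145a-3p ranked 4 (0.80), miR-145a-5p 16 (0.64) and miR-199a-3p 19 (0.62).

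miR-7a-5p, a miRNA best known from pancreatic islets and other endocrine cells, had 1524, 1867, 1442, 1655 and 1461 CPM in control dams 1 to 5. It had 1500, 1502, 1413 and 2083 CPM in high-fat dams 1 to 4. High-fat dam 4 was highest and control dams 2 and 4 next, so that its order resembles that of miR-143-3p over a much narrower range.

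The names most like miR-145a-5p were miR-145a-3p (r = 0.87), miR-122-5p, the chief miRNA of hepatocytes (0.87), miR-22-5p (0.76) and miR-130b-3p (0.73). Without high-fat dams 3 and 2, r was 0.76 for miR-145a-3p and 0.73 for miR-122-5p, but 0.06 for miR-22-5p and 0.32 for miR-130b-3p. miR-143-5p ranked 7 and miR-143-3p 12 among 311 names, and miR-199a-3p ranked 266 (-0.33), or 23 without high-fat dam 3. The names most like miR-199a-3p, listed after the counts were seen, were miR-199b-3p with the same counts, miR-802-5p (0.88), the red cell names miR-451a (0.86) and miR-486a-5p (0.85), and miR-486b-5p (0.84). Without high-fat dam 3, r was -0.35 for miR-802-5p, 0.70 for miR-451a (rank 10), 0.45 for miR-486a-5p and 0.46 for miR-486b-5p. Without the 2 dams farthest from the median of miR-199a-3p it was -0.35 for miR-802-5p, 0.91 for miR-451a (rank 2), 0.69 for miR-486a-5p and 0.73 for miR-486b-5p. The likeness to miR-802-5p thus rests on high-fat dam 3, while that to the red cell names was kept in part without it. miR-486a-5p and miR-486b-5p had nearly the same counts in every library, so they are not separate likenesses.

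**Figure D4:**
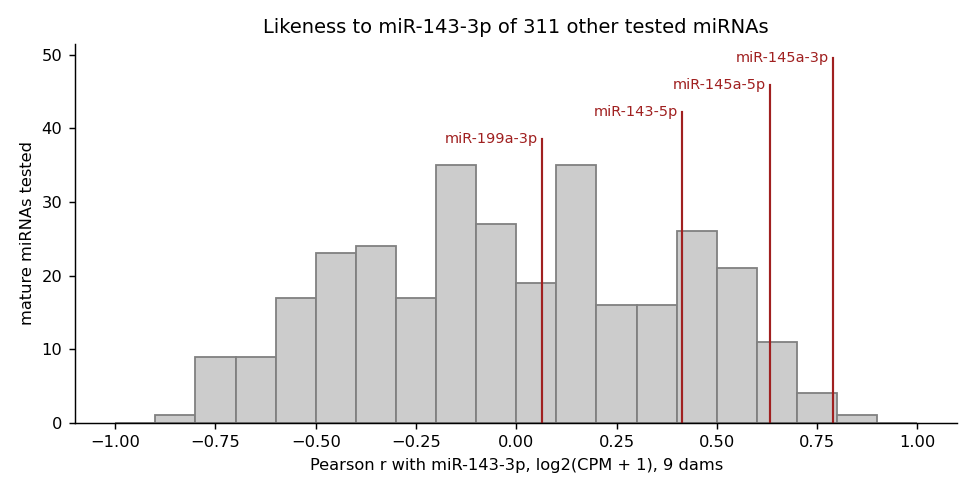
Histogram of Pearson r with miR-143-3p over 9 dams on log2(CPM + 1) (x axis) for 311 other tested mature miRNAs (y axis, number of names), with red lines at 4 members. miR-145a-3p (0.79) and miR-145a-5p (0.63) lie in the upper part of the distribution and miR-199a-3p (0.06) near its middle.

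The summed shares of the marker lists were then set beside miR-143-3p. Summed without miR-199b-3p, the other stromal list held 0.252% to 0.292% of the counts in control milk and 0.238% to 0.356% in high-fat milk. This was less than miR-143-3p alone in every library. Its lowest share was in high-fat dam 4, where miR-143-3p was highest. The relation was r = -0.73 (exact permutation p = 0.0263, adjusted p = 0.114 over 13 relations), rho = -0.63 (exact permutation p = 0.0760, adjusted p = 0.247), and r = -0.41 without high-fat dam 4 and control dam 1. Taken singly, 5 of the 9 tested names of the list had an r above 0 with miR-143-3p and 4 below 0, with a median of 0.06 beside -0.03 over 311 names. These 9 include miR-199b-3p, whose counts are those of the member miR-199a-3p, and its r of 0.06 is the median itself. miR-140-3p had r = -0.51 and miR-99a-5p -0.13, while miR-497a-5p, a name of the miR-15/16 family, had 0.58 (rank 19) and miR-140-5p 0.41.

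The luminal epithelial list gave a coefficient of the opposite sign. Its r with miR-143-3p was 0.73 (exact permutation p = 0.0260, adjusted p = 0.114) and rho 0.73 (exact permutation p = 0.0311, adjusted p = 0.202), and r was 0.80 without high-fat dam 4 and control dam 1. The list covered a narrow range, from 28.6% in control dam 5 to 34.0% in control dam 2. miR-148a-3p and miR-30a-5p made up 55.7% to 68.4% of its counts, and their r was 0.62 and 0.57, or 0.68 and 0.74 without high-fat dam 4 and control dam 1. Of the 10 names taken singly, 5 had an r above 0 and 5 below 0, from 0.62 down to -0.78 for miR-200b-3p. The r of miR-141-3p went from 0.48 to -0.16 and that of miR-200a-3p from 0.53 to 0.13 without high-fat dam 4 and control dam 1. The summed share therefore does not stand for the list's single names. Over the other lists r was -0.21 for the basal, -0.27 for the leukocyte, 0.21 for the endothelial, 0.11 for the red cell and 0.02 for the striated muscle list, with adjusted p from 0.884 to 0.999. The red cell coefficient was taken without miR-486b-5p. Shares of 1 library sum to a whole, so no such coefficient is independent of the others. In bulk RNA, fewer cells of a type and less RNA per cell cannot be told apart.

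The name stromal was checked against these shares. Its leading member, miR-143-3p, had a negative coefficient with the summed other stromal list and a positive one with the summed luminal epithelial list, neither of which passed the adjusted threshold, and the single names of both lists had coefficients of either sign. The name therefore stands here for what the 7 miRNAs are known from, and which cells the reads came from was not tested.

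High-fat dam 4 was described against the other 3 high-fat dams. miR-143-3p was 2.14-fold their mean, miR-143-5p 2.03-fold, miR-145a-5p 1.49-fold and miR-145a-3p 1.45-fold, while miR-199a-3p, at 27.8 CPM, lay within the range of the control dams. miR-143-3p was 1.36-fold above control dam 1, the next highest of all libraries, and miR-145a-5p and miR-145a-3p were not highest there. Names outside the group were high in this dam too. miR-141-3p, an epithelial miRNA, was 1.83-fold the mean of the other high-fat dams, miR-22-3p 1.48-fold, miR-205-5p, a basal epithelial miRNA, 1.48-fold, and miR-148a-3p, the leading milk miRNA, 1.11-fold. miR-200b-3p was lower, at 0.818-fold. The stromal names miR-497a-5p (1.68-fold) and miR-195a-5p (1.46-fold) were, like miR-143-3p, at their highest of the 9 libraries here. Other stromal names went the other way. miR-125b-5p was 0.246-fold and at its lowest of the 9 libraries, miR-218-5p was 0.578-fold, miR-99a-5p 0.718-fold and miR-140-3p 0.725-fold. The dam's total of 1905838 counts lay within the range of the others, and across the 9 dams the relation of miR-143-3p to the library total was r = -0.14 (exact permutation p = 0.714, adjusted p = 0.835 over 5 members) and rho = -0.22 (exact permutation p = 0.581, adjusted p = 0.708). It was -0.60 without control dam 5 and high-fat dam 2, the shallowest and the deepest library. With the library total, miR-145a-5p had r = -0.56 and rho = -0.57 (exact permutation p = 0.117 and 0.121), miR-143-5p r = -0.47 and rho = -0.62 (exact permutation p = 0.203 and 0.0857), and miR-145a-3p r = -0.30 and rho = -0.48 (exact permutation p = 0.433 and 0.194), each with an adjusted p of at least 0.301. The part of depth in the relations between members was not tested. The part of these names in the level of miR-143-3p was not tested.

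High-fat dam 3 differed in other members. Beside its high miR-199a-3p, it had the lowest miR-145a-5p, miR-145a-3p and miR-143-5p of the 9 libraries. miR-199b-5p, the arm that separates Mir199b from the Mir199a genes, had 31 counts there and at most 3 in any other library. The stromal name miR-125b-5p was 2.40-fold above the next highest library, at 410 CPM, whereas miR-140-3p and miR-140-5p lay within the range of the others.

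Markers of other cell types were also high in high-fat dam 3. The striated muscle list of 7 names held 0.00979% of its counts, against 0.000436% to 0.00137% in the control dams and 0.000231% to 0.000525% in the other high-fat dams. miR-133a-3p had 146 counts there and at most 8 elsewhere, miR-1a-3p 38 and at most 5, and miR-133b-3p 14 and at most 1. miR-499-5p went the other way, with 0 counts there and up to 9 in control dam 2, while miR-206-3p, miR-208a-3p and miR-208b-3p were at 0 in all libraries, so 4 of the 7 names were detected. The red cell list, with 5 of 5 names detected, held 0.0796%, against 0.00334% to 0.0206% in the control and 0.00270% to 0.0120% in the other high-fat dams. Both miR-486a-5p and miR-486b-5p enter this share, although their counts were nearly the same (295 and 294 in high-fat dam 3). The leukocyte list, with 7 of 7 names detected, held 0.353%, below 1.23% in high-fat dam 1 and above 0.0284% to 0.104% in the other 7 libraries. miR-802-5p had 1361 counts in high-fat dam 3 and at most 65 elsewhere. Of the 312 tested names, 10 were more than 2-fold above every other library in high-fat dam 3, beside 9 in control dam 5, 5 in high-fat dam 1 and 1 in high-fat dam 4. The part of these cell types in the level of miR-199a-3p was not tested.

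**Figure D5:**
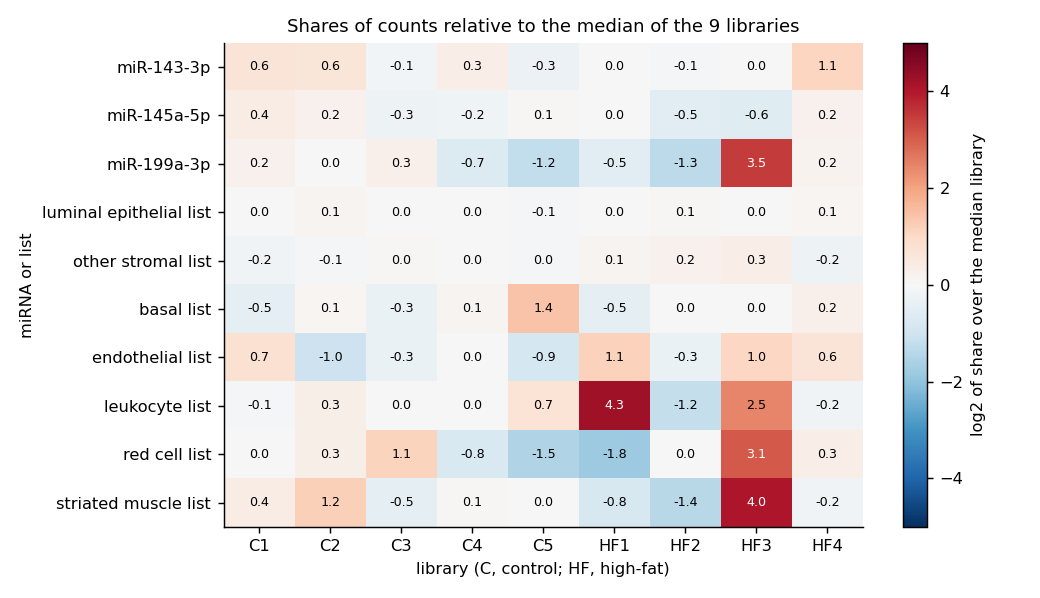
Log2 of the share of counts over the median of the 9 libraries (colour scale and printed values) for 3 members and 7 marker lists (rows) in each library (columns). miR-143-3p is highest in high-fat dam 4, and in high-fat dam 3 miR-199a-3p is high together with the red cell and striated muscle lists while miR-145a-5p is low.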

How the data were processed

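The authors deposited read counts of known miRNAs, with a column for each dam and a row for each precursor with its mature name. The submitters' processing notes name cutadapt 1.9.1 and the build GRCm38. For the aligner, the counter and the release of miRBase, the sources used here give nothing. Per the labels' protocols, the fat layer was washed and spun to remove cells, and total RNA went into NEXTflex small RNA libraries. Because 833 cells carry comma separators, the deposited columns were recorded under another unit than plain counts, and the values were used as whole read counts with commas removed.

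In each library the highest of a name's rows was kept, since equal rows may hold the same reads. miR-199a-3p and miR-199a-5p each have 2 rows, with equal counts. CPM divides by the library total. Same-diet libraries differed by a chi-square of at least 50.2 per degree of freedom, so none repeats another. limma 3.58.1 (R 4.3.3) with voom weights and trimmed mean of M values factors tested the 312 names that reached 5.25 CPM (10 counts in the median library) in 4 or more libraries and 15 counts in total. Untested names held 0.0470% of counts. Tests are two-sided, with Benjamini-Hochberg adjustment over all 312 names. Ratios add 0.5 counts to each name, and relations use log2(CPM + 1), both with exact permutation tests (scipy 1.17.1). Wilson and exact intervals (95%) and the floor of 3 counts cover counting error only, since reads are not independent molecules.

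The scripts were tested on simulated data. The members, lists and tests were chosen with earlier results of these data known. Named by rule were the 7 members, the 5 other names most like miR-143-3p and the 3 most like miR-145a-5p. Lists cover other stromal, basal, luminal, leukocyte, endothelial, red cell and striated muscle names. Alternatives were other scalings, no filter, summed rows, library weights, a replicate block, other pseudocounts and each library left out. The labels give neither batch nor date. Dams are the replicates, and the tests set differences and relations against the spread between these dams.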

Additional observations from a re-analysis of the deposited data

Results flagged for a closer look

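In 6 of 38 groups of 4 or 5 libraries searched, 1 library lay far from the rest of its diet by Dixon's criterion. For normally distributed values chance gives about 1 in 20 groups, or 1.9. The groups here held CPM, log2 ratios and percent shares, some of them from a few counts. The value of 1.9 is therefore a rough reference, and no excess over chance is read from it. Among the members, miR-143-3p measured 25225 CPM in high-fat dam 4, and 11360 to 12039 CPM in the other 3 high-fat dams. miR-199a-3p measured 284 CPM in high-fat dam 3, and 10.0 to 27.8 CPM in the other 3. The log2 ratio of miR-199a-3p to miR-145a-5p was 0.0562 in high-fat dam 3, and -4.83 to -4.11 in the other 3.

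Among the marker lists, the basal epithelial list (miR-205-5p, miR-205-3p and miR-203-3p) held 1.08% of the counts in control dam 5, and 0.283% to 0.440% in the other 4 control dams. In control dam 5 miR-203-3p had 10536 CPM, against 2368 to 4161 CPM in the other 4. miR-205-5p went the other way there, with 215 CPM, its lowest level of the 9 libraries, and miR-205-3p had 0 counts. The red cell list held 0.0796% in high-fat dam 3, and 0.00270% to 0.0120% in the other 3 high-fat dams. The striated muscle list held 0.00979% in high-fat dam 3, and 0.000231% to 0.000525% in the other 3. High-fat dam 3 gave 4 of the 6 values, so they are not independent of each other. What sets these libraries apart was not tested.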

How the results depend on the processing

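By limma-voom, no member had an adjusted p under 0.05 in any alternative run. Over all names, 0 of 312 were called in the chosen fit, 4 without the filter, 2 with a quality weight for each library, 3 with a replicate block and 0 to 4 with each library left out (4 without control dam 5). The log2 fold change of miR-143-3p was near 0 and its sign turned: -0.0102 with median of ratios factors, -0.0021 without the filter, -0.0385 with rows summed, -0.11 with the replicate block and -0.31 to 0.13 with each library left out. That of miR-199a-3p was 1.21 with the replicate block and -0.51 (without high-fat dam 3) to 1.10 with each library left out. The coefficient of miR-143-3p with miR-199a-3p was -0.16 on linear CPM and -0.0870 to 0.62 with each library left out. With miR-199a-5p it was 0.0406 with rows summed and -0.34 to 0.20, and with miR-214-3p -0.27 without the 2 farthest dams and 0.01 to 0.65. With the lists it was -0.40 to 0.41 (basal), -0.18 without the 2 farthest dams (endothelial), -0.15 on linear CPM and -0.10 to 0.41 (red cell), and -0.17 on linear CPM, -0.0306 with a pseudocount of 5 CPM and -0.0836 to 0.50 (striated muscle). The ratio of miR-145a-5p to miR-145a-3p differed by 0.0767 with the replicate block and by -0.10 to 0.0767 with each library left out, that of miR-199a-3p to miR-199a-5p by -0.10 with rows summed and by -0.28 to 0.46, and that of miR-199a-3p to miR-145a-5p by -0.16 to 1.47. The cause of these changes was not tested. With each library left out, r with miR-145a-5p stayed within 0.57 to 0.79, with miR-145a-3p within 0.76 to 0.87 and with miR-143-5p within 0.35 to 0.60. The ratio of miR-143-3p to miR-145a-5p differed by 0.15 to 0.44 (0.15 with the replicate block) and to miR-143-5p by 0.42 to 0.93. Of all alternatives, 304 kept direction and side of the threshold, 37 turned a sign and 4 moved a count. For relations these labels use r and not rho. The rho with miR-145a-3p passed the threshold with each diet's mean removed (exact permutation test, adjusted p = 0.00974).

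Replicate numbers mark separate dams, and same-numbered dams deviated from their diet means with r = 0.06, -0.08, 0.20 and -0.16. The control dam most like high-fat dam 1 was control dam 1, and that most like high-fat dam 3 was control dam 3. For high-fat dams 2 and 4 it was a control dam of another number. Whether same-numbered dams share a batch was not tested. Depth limits miR-143-5p, miR-199a-5p and miR-214-3p, which have 168, 55 and 8 counts in all.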
